A study of Caenorhabditis elegans with 8 samples.

Results

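Sphingolipids are membrane lipids built on a long-chain amino alcohol, the sphingoid base. Serine palmitoyltransferase makes the base, ceramide synthases join a fatty acid to it, and the resulting ceramide is turned into sphingomyelin or glucosylceramide. Acid sphingomyelinases cut sphingomyelin back to ceramide, so ceramide can come from new synthesis or from breakdown. In Caenorhabditis elegans the base is branched, and sphingolipids act in intestinal polarity, larval growth and survival of low oxygen. Loss of asm-3 has been reported to lengthen worm lifespan through the transcription factor DAF-16.

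The 10 genes described here encode enzymes of 4 steps and were found by their symbols among 17826 genes. They are the serine palmitoyltransferase genes sptl-1 and sptl-3, the ceramide synthase genes hyl-1, hyl-2 and lagr-1, the glucosylceramide synthase genes cgt-1 and cgt-3, and the acid sphingomyelinase genes asm-1, asm-2 and asm-3. asm-3 was chosen because it was lower with zidovudine in these same libraries, so its difference is described without a test. The other 9 genes were chosen for their function. Of these, 8 passed the filter of a mean of at least 0 log2 CPM (the log2 of reads scaled to library size, with a small added prior) and were tested; lagr-1 was below it.

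Zidovudine is a thymidine analogue used against HIV. Whole wild-type worms (strain N2) were placed at larval stage 4 on plates with 50 µM zidovudine or with the DMSO vehicle, and were harvested 24 h later as day 1 adults, about 1000 worms to a sample. The stated protocol puts 5-fluorouracil, a pyrimidine analogue, on the plates as well, and this was taken to hold for both groups. Each group had 4 samples and 1 library from each; whether these came from separate cultures is not stated, so the p-values speak only of sample-to-sample spread, which may be technical.

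The libraries held 30449021 to 56930820 reads assigned to genes. The sample description of DMSO 4 opens with an identifier of its own, read here as its flow cell. DMSO 4 listed 8.24% of genes at 0 reads, against 1.07% to 2.17% elsewhere. Leaving it out gives the comparison within the other 7 libraries, which share 1 identifier. Whole-worm RNA was checked with 5 markers each of intestine, body wall muscle, pharynx, neurons, epidermis, germ line and sperm, and none of the 35 was at 0 reads in all libraries. The summed pharynx markers were at 89.7 to 108 CPM with DMSO and 118 to 149 with zidovudine, with all 4 tested markers above 0. The summed sperm markers were at 11.7 to 16.2 CPM with DMSO and 9.96 to 11.4 with zidovudine, with all 3 tested markers below 0. The summed levels of the other 5 tissues overlapped between groups. All 5 epidermis markers were below 0, with a median difference of -0.23, and all 5 of body wall muscle and all 5 of neurons were above 0, with medians of 0.15 and 0.066. Intestine and germ line each had 4 of 5 above 0. Of the 32 markers tested none passed the threshold (limma), and 9 had an unadjusted p under 0.05, among them all 4 of the pharynx; over all tested genes these shares were 0.17% and 11.8%.

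asm-3 (WBGene00000213) lies on chromosome IV, 520214 to 523809 in WBcel235, on the minus strand, with 1912 nt of exon in 13 blocks. Its level was 0.97 log2 CPM in DMSO 1, 1.14 in DMSO 2, 2.0 in DMSO 3 and 1.16 in DMSO 4. With zidovudine it was -0.80, -1.13, -1.0 and -1.41 in replicates 1 to 4. Every zidovudine library was below every DMSO library, with a gap of 1.77 log2 units between the lowest DMSO and the highest zidovudine value.

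Those levels rest on 75, 77, 120 and 96 reads with DMSO and on 31, 13, 21 and 16 with zidovudine. The group means were 1.32 ± 0.46 and -1.08 ± 0.26 log2 CPM (SD, n = 4 each), a difference of -2.40. asm-3 was chosen for this fall, so its size is not ranked against other genes. It passed the filter only through its DMSO libraries, with a mean of 0.12 log2 CPM over all 8. On the linear scale without the added prior the means were 2.55 ± 0.943 and 0.429 ± 0.0828 CPM (SD, n = 4 each), 5.95-fold lower with zidovudine. The difference was -2.18 without DMSO 3, the highest library, and -2.45 without DMSO 4. In RNA from whole worms, fewer cells that express a gene and less RNA per cell cannot be told apart. The higher pharynx and lower sperm markers moved with the groups as well, and their part in the asm-3 difference was not tested.

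**Figure D1:**
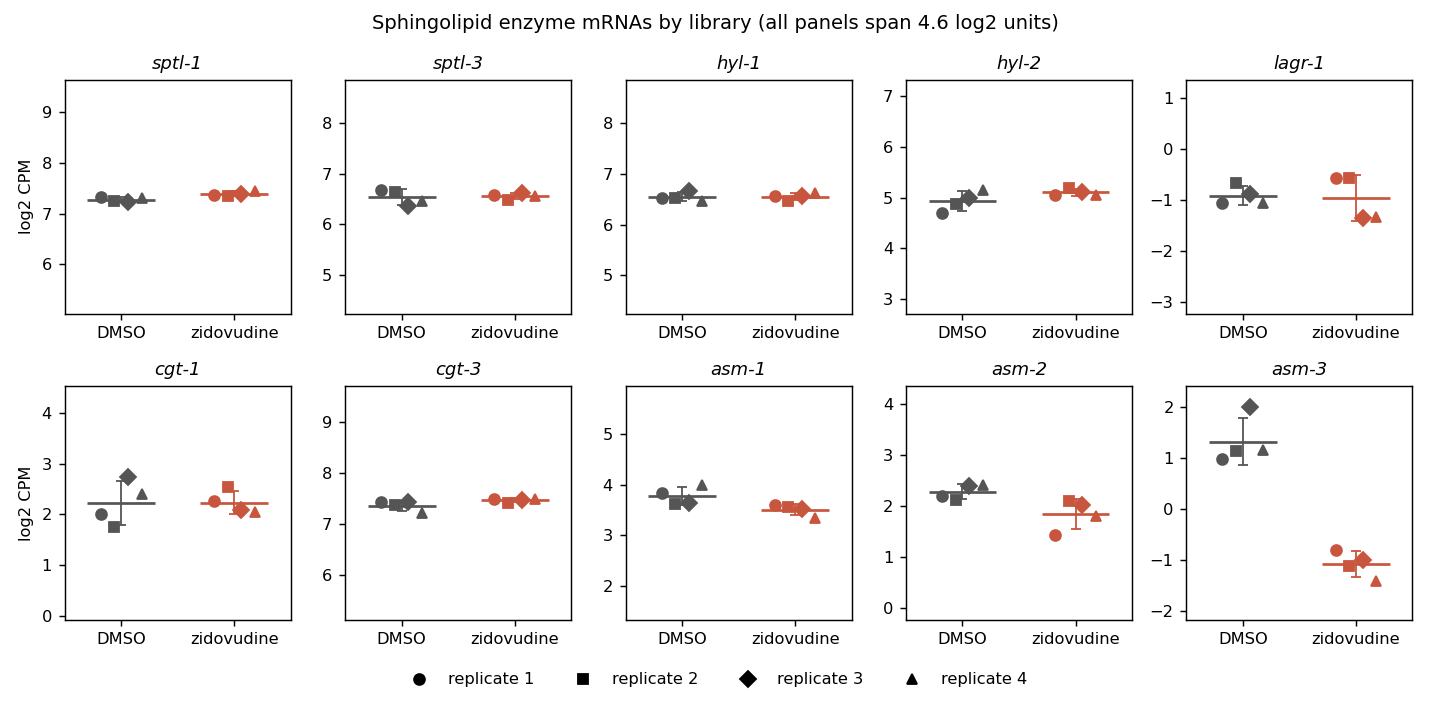
Level of each of the 10 genes in log2 CPM in the 8 libraries, with the mean and SD of each group; marker shapes give the replicate number, and all panels span the same number of log2 units. The groups of asm-3, which was chosen for its fall, lie 1.77 log2 units apart at their nearest. Those of asm-1 and asm-2, chosen for function, separate by 0.013 and 0.028.

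The other acid sphingomyelinase genes, chosen for function, were also lower in every zidovudine library. asm-2 (WBGene00000212; chromosome X, 11321079 to 11324251) was at 2.20, 2.12, 2.39 and 2.42 log2 CPM under DMSO and at 1.44, 2.1, 2.03 and 1.81 with zidovudine. Zidovudine 1 was the lowest library and zidovudine 4 the next, while zidovudine 2 and 3 lay just under the DMSO range. The difference was -0.44 (95% interval -0.81 to -0.076, SE 0.17, unadjusted p = 0.0209, limma adjusted p = 0.328), a 1.36-fold lower level that did not pass the threshold. It was -0.31 without zidovudine 1 and -0.40 without DMSO 4.

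asm-1 (WBGene00000211; chromosome II, 6910072 to 6912659) was at 3.84, 3.61, 3.64 and 3.98 log2 CPM under DMSO and at 3.6, 3.56, 3.53 and 3.35 with zidovudine. The groups did not overlap, but only 0.013 log2 units separated them. The difference was -0.26 (95% interval -0.50 to -0.021, SE 0.11, unadjusted p = 0.0350, limma adjusted p = 0.390), and -0.19 without DMSO 4. asm-1 shares 120 nt of exon with cyn-10 on the opposite strand. Since strand use in counting is not stated, its reads there are uncertain; cyn-10 itself differed by -0.042 (limma adjusted p = 0.850; 0.069 with the length trend removed).

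Of the 8 tested genes chosen for function, none passed the threshold (limma), against 0.17% of all tested genes. With voom on the recovered reads none passed either. At an unadjusted p under 0.05 there were 2, asm-1 and asm-2, against 11.8% of all tested genes. Groups did not overlap for 3 of the 8, against 6.65% of all tested genes. asm-1 and asm-2 were the lower ones, against 2.82% of all tested genes, and sptl-1 the higher one, against 3.84%. The 8 genes had a median difference of 0.014, with 6 above 0 and 2 below, beside a median of 0.0082 for all tested genes.

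Corrected for exon length, the acid sphingomyelinase mRNAs added up to 11.3, 10.2, 11.7 and 12.7 CPM per kb in DMSO 1 to 4. With zidovudine the sum was 8.41, 8.95, 8.73 and 7.64 CPM per kb, below the DMSO range in all 4 libraries. asm-1 made up most of the sum in every library, 66.5% ± 5.0 under DMSO and 75.3% ± 3.4 with zidovudine (SD, n = 4 each). The share of asm-3 was 8.81%, 11.1%, 17.6% and 9.04% with DMSO and 3.27%, 2.39%, 2.71% and 2.25% with zidovudine. The 2 other genes alone added up to 9.05 to 11.6 CPM per kb with DMSO and 7.46 to 8.74 with zidovudine. These sums hold asm-3 or genes already described and were not tested.

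**Figure D2:**
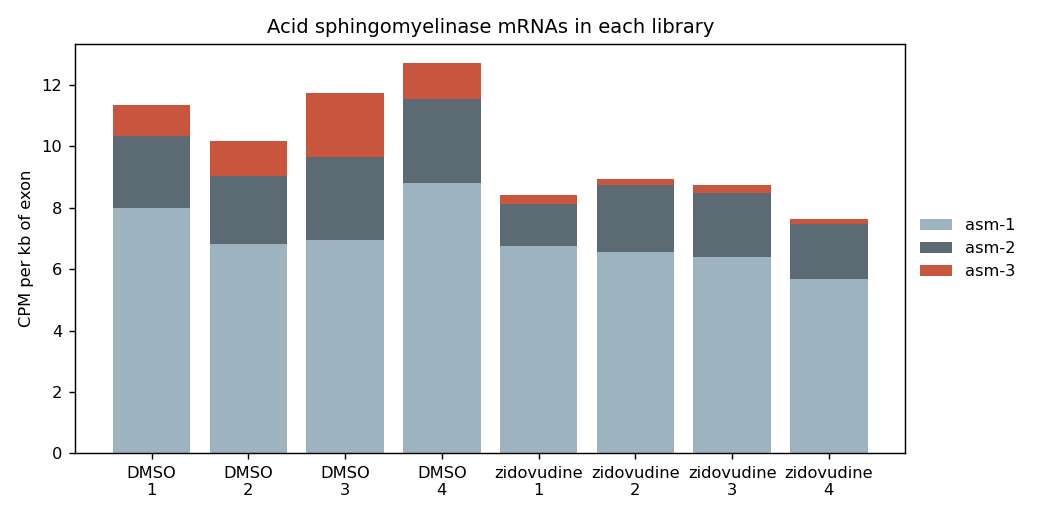
Stacked bars of the asm-1, asm-2 and asm-3 levels in CPM per kb of exon in each library. The asm-3 segment takes 8.81% to 17.6% of the bar in the DMSO libraries and 2.25% to 3.27% in the zidovudine libraries, and asm-1 is the largest segment in all 8.

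At the entry to the pathway, sptl-1 (WBGene00016020; chromosome II, 51652 to 57570) encodes a subunit of serine palmitoyltransferase. It was at 7.32, 7.25, 7.22 and 7.30 log2 CPM under DMSO and at 7.36, 7.35, 7.39 and 7.45 with zidovudine. All 4 zidovudine libraries were above all DMSO libraries, by 0.030 at the nearest. The difference was 0.11 (95% interval -0.0092 to 0.23, SE 0.057, limma adjusted p = 0.459), or 1.08-fold, and did not pass the threshold. It was 0.12 without DMSO 4.

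sptl-3 (WBGene00011932; chromosome V, 13893325 to 13896415), for another serine palmitoyltransferase subunit, was at 6.36 to 6.68 log2 CPM under DMSO and 6.47 to 6.61 with zidovudine. The ranges overlapped, and the difference was 0.018 (95% interval -0.14 to 0.18, limma adjusted p = 0.943). It turned to -0.016 with the length trend removed. The remaining serine palmitoyltransferase gene, sptl-2, was at 4.09 ± 0.12 log2 CPM under DMSO and 3.99 ± 0.21 with zidovudine (SD, n = 4 each; limma adjusted p = 0.736).

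The ceramide synthases HYL-1 and HYL-2 prefer fatty acids of different chain length, and worms lacking hyl-2 are sensitive to loss of oxygen. hyl-2 (WBGene00002044; chromosome X, 4696754 to 4699461) was at 4.70, 4.88, 5.00 and 5.16 log2 CPM under DMSO and at 5.05, 5.19, 5.11 and 5.06 with zidovudine. DMSO 4 lay inside the zidovudine range and the other 3 DMSO libraries below it. The difference was 0.17 (95% interval -0.032 to 0.37, limma adjusted p = 0.506). It was 0.24 without DMSO 4 and 0.089 without DMSO 1.

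hyl-1 (WBGene00002043; chromosome IV, 8539123 to 8544412) differed by 0.0017 (95% interval -0.13 to 0.14, limma adjusted p = 0.995), from 6.55 ± 0.088 to 6.55 ± 0.063 log2 CPM (SD, n = 4 each). lagr-1 (WBGene00006505; chromosome I, 13724577 to 13732046), for a probable ceramide synthase, had 15 to 37 reads per library and was at -0.91 ± 0.19 and -0.95 ± 0.45 log2 CPM (SD, n = 4 each). In a fit without the filter its difference was -0.041, with a 95% interval of -0.83 to 0.75 (limma adjusted p = 0.979).

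Glucosylceramide synthases cap ceramide with glucose, and worms without cgt-1 and cgt-3 arrest as larvae. cgt-3 (WBGene00019127; chromosome II, 5911324 to 5916910) was at 7.42, 7.37, 7.42 and 7.22 log2 CPM under DMSO and at 7.50, 7.42, 7.47 and 7.49 with zidovudine. The groups met at their edges, and the difference was 0.11 (95% interval -0.022 to 0.24, limma adjusted p = 0.512), and 0.064 without DMSO 4. cgt-1 (WBGene00011517; chromosome V, 15886719 to 15888851) varied more between DMSO libraries, from 1.74 to 2.75 log2 CPM, than between groups. Its zidovudine libraries, at 2.05 to 2.53 log2 CPM, lay within that range, and the difference was 0.010 (95% interval -0.42 to 0.44, limma adjusted p = 0.989). Its sign turned with sample quality weights (-0.00023) and with the length trend removed (-0.013).

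The 10 mRNAs spanned a wide range of levels per length. With DMSO, sptl-1 was at 101 ± 3.19 CPM per kb of exon, cgt-3 at 86.2 ± 5.59, hyl-1 at 63.0 ± 3.89 and sptl-3 at 47.9 ± 4.99 (SD, n = 4 each). Below them came hyl-2 at 20.7 ± 2.78, asm-1 at 7.64 ± 0.935, cgt-1 at 3.06 ± 0.946 and asm-2 at 2.51 ± 0.252 CPM per kb. asm-3, at 1.34 ± 0.493, stood above lagr-1 alone, at 0.395 ± 0.0590 CPM per kb. Among neighbours in this order only cgt-1 and asm-2 overlapped between DMSO libraries. With zidovudine asm-3, chosen for its fall, was at 0.224 ± 0.0433 CPM per kb, with 0.275 in its highest library. The lowest lagr-1 value in the 8 libraries was 0.280. These values rest on 31 reads of asm-3 in zidovudine 1 and 16 of lagr-1 in zidovudine 3. They are too close for the order of these genes with zidovudine to be read.

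**Figure D3:**
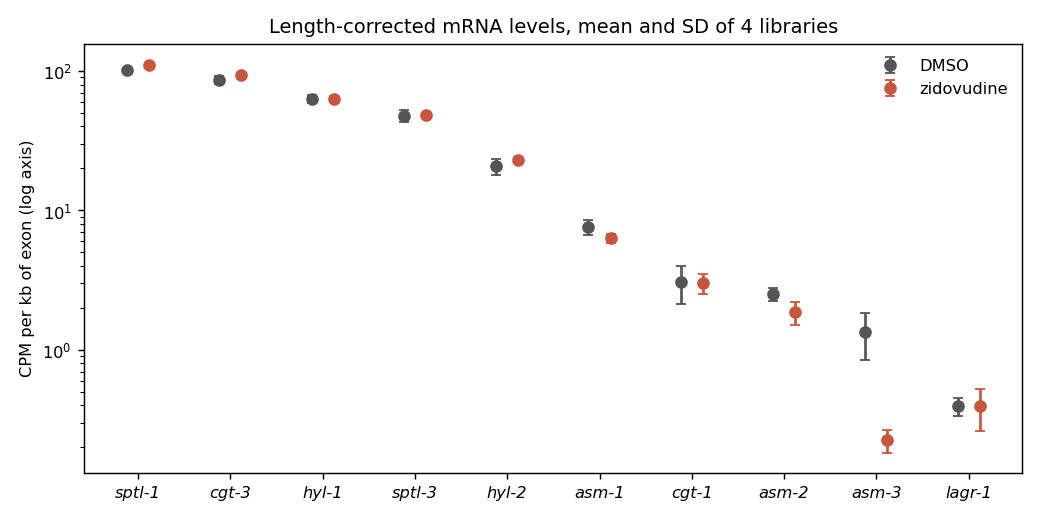
Length-corrected level in CPM per kb of exon on a log axis, as mean and SD of 4 libraries, for the 10 genes ordered by their DMSO level. The order runs from sptl-1 at 101 CPM per kb to lagr-1 at 0.395, and asm-3 moves from 1.34 to 0.224.

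The balance between enzymes of 1 step was compared as the log2 ratio of their levels in each library. Library scaling cancels in this ratio apart from the small added prior. Levels in these ratios are not corrected for length. asm-2 over asm-1 averaged -1.49 ± 0.17 under DMSO and -1.66 ± 0.33 with zidovudine (SD, n = 4 each; difference -0.18, exact two-sided permutation p = 0.514). Zidovudine 1, at -2.16, stood apart from the other 3 at -1.54 to -1.46, and the difference was -0.013 without it. sptl-3 over sptl-1 differed by -0.094 (exact permutation p = 0.286), hyl-2 over hyl-1 by 0.17 (exact permutation p = 0.257) and cgt-3 over cgt-1 by 0.10 (exact permutation p = 0.743).

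All 4 ratios overlapped between groups. After Benjamini-Hochberg adjustment over the 4 ratios their exact permutation p-values were 0.571 to 0.743. The smallest p that 4 against 4 can give is 0.0286 before adjustment. A single ratio at that p would stay above 0.05 once adjusted, so the test could not call 1 ratio alone. cgt-3 over cgt-1 took both signs when 1 library was left out, at -0.053 without DMSO 3 and -0.0037 without DMSO 4. The hyl-2 over hyl-1 difference was 0.27 without DMSO 4, 0.094 without DMSO 1 and 0.11 without zidovudine 2. For sptl-3 over sptl-1 it was -0.052 without DMSO 2 and -0.061 without DMSO 1.

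**Figure D4:**
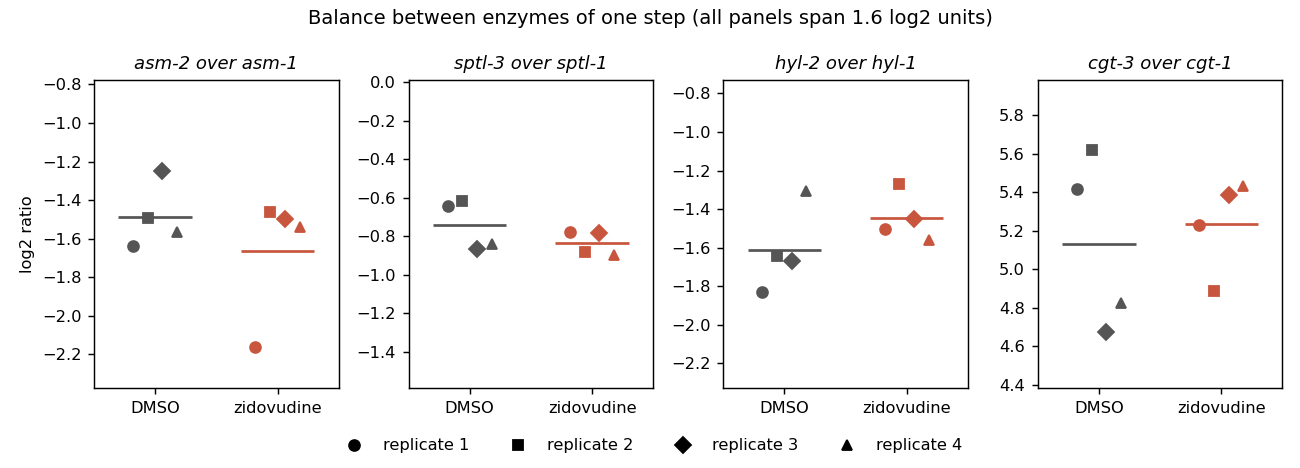
Log2 ratio of the levels of paired enzyme genes in each library, with the mean of each group; marker shapes give the replicate number and all panels span the same number of log2 units. The groups overlap in all 4 panels, and zidovudine 1 lies at -2.16 for asm-2 over asm-1.

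The rest of the pathway was followed with a list of 28 other sphingolipid genes, of which 27 were measured and 25 tested. None passed the threshold in either direction (limma), against 0.17% of all tested genes, and none passed with voom. At an unadjusted p under 0.05 there were 2, gba-1 and sms-2, against 11.8% of all tested genes. Groups did not overlap for 2 of the 25, cgt-2 and spl-1, against 6.65% of all tested genes. Both were higher with zidovudine, against 3.84%. The list had 16 genes above 0 and 9 below, with a median difference of 0.031, beside 0.0082 for all tested genes.

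gba-1, for a putative glucosylceramidase that removes glucose from glucosylceramide, was at 3.45, 2.91, 3.66 and 3.12 log2 CPM under DMSO and at 3.81, 3.76, 3.61 and 3.83 with zidovudine. DMSO 3 reached into the zidovudine range and the other DMSO libraries lay below it. The difference was 0.47 (95% interval 0.16 to 0.78, SE 0.15, unadjusted p = 0.00529, limma adjusted p = 0.230). The limma adjusted p ran from 0.0901 to 0.505 over the other settings. The other tested glucosylceramidase genes, gba-3 and gba-4, lay below 0, at -0.032 and -0.052. gba-2 was below the filter, with 7 to 40 reads per library.

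sms-2, for a sphingomyelin synthase, which makes the substrate of the sphingomyelinases, was at 3.91 ± 0.24 log2 CPM under DMSO and 4.21 ± 0.16 with zidovudine (SD, n = 4 each). The groups overlapped, and the difference was 0.30 (95% interval 0.035 to 0.56, limma adjusted p = 0.369). The other tested sphingomyelin synthase genes, sms-1 and sms-3, lay below 0 at values no lower than -0.087. fath-1, for the fatty acid 2-hydroxylase, differed by 0.13 (95% interval -0.0010 to 0.26, limma adjusted p = 0.425) and spl-1, for the sphingosine-1-phosphate lyase that ends the pathway, by 0.12 (-0.0038 to 0.25, limma adjusted p = 0.438).

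Among the further genes of the list, named after their values were seen, the differences were 0.20 for the glucosylceramide synthase gene cgt-2 and -0.18 for the acid ceramidase gene asah-1. They were 0.084 for the sphingosine kinase gene sphk-1, 0.086 for the ceramide kinase gene cerk-1 and 0.091 for bre-3, which acts on glucosylceramide to extend its sugar chain. The elongases elo-5 and elo-6, which supply branched fatty acids for the sphingoid base, were at 0.14 and 0.11. elo-5 shares 162 of its 922 nt of exon with F41H10.3 on the opposite strand, so its reads there are uncertain, as for asm-1. Without DMSO 4 the difference was 0.0039 for cerk-1, 0.054 for bre-3 and -0.32 for asah-1, and without DMSO 3 it was -0.068 for asah-1. Over all 8 ways of leaving out 1 library it ran from 0.052 to 0.14 for sphk-1, from 0.0039 to 0.14 for cerk-1, from 0.054 to 0.14 for bre-3 and from 0.075 to 0.16 for elo-6. With all libraries the limma adjusted p-values of these genes ran from 0.446 for elo-5 to 0.695 for cerk-1. Other genes of these steps, not picked above, were asah-2 at 0.030, acs-1 at 0.021, bre-2 at 0.10, bre-4 at -0.065 and bre-5 at 0.016. Beside spl-1, the genes spl-2 and spl-3 were at -0.054 and -0.025.

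**Figure D5:**
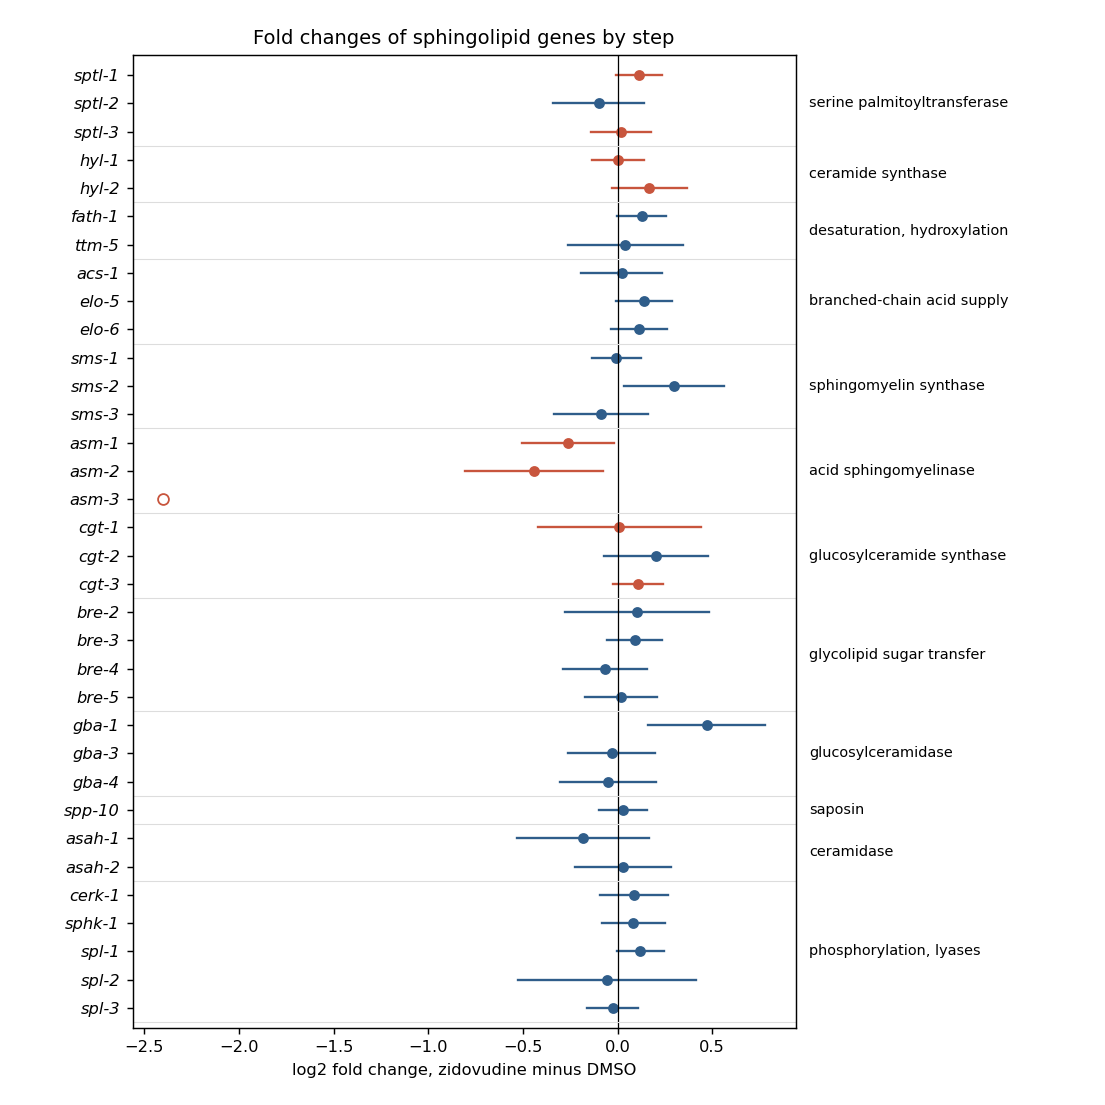
Log2 fold change (zidovudine minus DMSO) with its 95% interval for the tested sphingolipid genes, grouped by step; red points are the 9 described members that were tested or chosen for their difference, blue points the 25 genes of the wider list. asm-3, chosen for its fall, is the open point without an interval, at -2.40. The other points lie between -0.44 and 0.47.

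The genes next to asm-3 on chromosome IV overlapped between groups, and all but pig-1 rested on few reads. pig-1, a kinase gene on the same strand, begins 756 nt beyond the end of asm-3. It was at 6.88 ± 0.095 log2 CPM under DMSO and 6.94 ± 0.066 with zidovudine (SD, n = 4 each, limma adjusted p = 0.749). On the other side W03G1.2, 842 nt away on the opposite strand, had 53, 39, 26 and 19 reads with DMSO and 45, 10, 22 and 41 with zidovudine. Its groups overlapped at -0.13 ± 0.67 and -0.72 ± 0.60 log2 CPM (SD, n = 4 each). W03G1.5 and the noncoding gene W03G1.8 had at most 39 and 6 reads in any library; these 3 genes were below the filter.

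The genes whose levels followed asm-3 most closely over the 8 libraries were ranked by Pearson correlation of log2 CPM across the 12382 tested genes. They were the short-chain dehydrogenase gene dhs-26 (r = 0.953), the C-type lectin gene clec-52 (0.947), tgt-1, for a queuine tRNA-ribosyltransferase (0.946), the SWEET sugar transporter gene swt-3 (0.943), K03H6.2 (0.935) and ZK550.6, for a probable phytanoyl-CoA dioxygenase (0.927). These values describe 8 libraries that fall into the 2 groups, so a gene lower with zidovudine can score high for that alone. Among the genes chosen for function, asm-2 had r = 0.717 with asm-3 over the same 8 libraries and asm-1 r = 0.676. They ranked 378 and 552 among the tested genes. For sptl-1 r was -0.906, and a gene higher with zidovudine can score low for that alone.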

How the data were processed

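The authors deposited 1 table of 17826 genes whose columns, CPM per the file headers, hold log2 CPM: the values reach -4.39 in all 8 libraries. After subtracting that floor on the linear scale, 100% of values up to 300 reads fell on whole reads (within 0.05), which returned the reads and showed an added prior of 2 reads for a library of mean size. This prior draws log2 differences of low genes toward 0. Per the submitters' processing notes, the tools were limma 3.40.6, edgeR 3.26.8, HTSeq 0.11.0, HISAT2 2.1.0, Trimmomatic 0.32 and FastQC. For the build, annotation and use of strand in counting, nothing is given in the sources used here.

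The 12382 genes whose mean reached 0 log2 CPM were fitted with limma 3.58.1 (trend, robust empirical Bayes, two-sided, group as the only term) in R 4.3.3, with Benjamini-Hochberg adjustment over all of them and a threshold of 0.05. Intervals are 95% intervals. Enzyme ratios were compared by exact permutation tests in SciPy 1.17.1. Levels per length use the recovered reads over the union of exons (Ensembl release 115, WBcel235), matched by gene ID. The fit was tested on simulated data.

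The members and lists were chosen with earlier results of these data known. Genes named were the 10 members, the 4 other sphingolipid genes with the smallest p, the 4 measured neighbours of asm-3 and the 6 genes most correlated with it; a few more were named after their values were seen. Replicates of a group differed by far more than sampling noise (chi-square per degree of freedom 14.1 to 67.2). Alternatives were quantile normalization, limma without trend, other filters, a replicate block, sample quality weights, voom on the recovered reads, library totals, removal of each library's trend on exon length, and leaving out each library.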

Additional observations from a re-analysis of the deposited data

Results flagged for a closer look

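In 1 of 36 groups of 4 libraries examined (the members, the named genes of the wider list and the enzyme ratios), a library stood far from the others. It was the log2 ratio of asm-2 over asm-1 in zidovudine 1, at -2.16 against -1.54 to -1.46 in the other 3 zidovudine libraries. Its gap to the nearest library was 0.893 of the group's range, above Dixon's 95% critical value for 4 values. Chance alone gives about 1 such group in 20. The ratio there rests on 157 reads of asm-2 and 712 of asm-1.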

How the results depend on the processing

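No gene chosen for function and no gene of the wider sphingolipid list passed the threshold under any of the 17 alternatives run, replicate block included (0 calls, with 9 over all genes). Over those alternatives the adjusted p ran from 0.161 to 0.639 for asm-2 and from 0.269 to 0.736 for asm-1. The asm-3 difference was -2.52 to -2.18; it has no value with a filter at 1 log2 CPM, which removes the gene, and lagr-1 has one only without a filter. Over all genes 21 calls became 13 with quantile normalization, 4 without trend, 148 with sample quality weights and 12 with library totals. They became 4, 11, 33 and 35 without DMSO 1 to 4 and 6, 41, 5 and 5 without zidovudine 1 to 4. Differences near 0 changed sign in some settings, and the cause was not tested. hyl-1 was at -0.0022 with quality weights, -0.0073 with library totals and -0.017 with the length trend removed. With that trend removed sptl-3 was at -0.016, cgt-1 at -0.013, pig-1 at -0.0033 and cyn-10 at 0.069, and cgt-1 was at -0.00023 with quality weights. Leaving out 1 library gave -0.041 to 0.067 for sptl-3, -0.027 to 0.043 for hyl-1, -0.15 to 0.18 for cgt-1, -0.14 to 0.0048 for sptl-2, -0.096 to 0.0061 for cyn-10 and -0.053 to 0.26 for cgt-3 over cgt-1. The main fit did not pair same-numbered libraries, and these did not deviate together (correlations -0.32 to 0.14). These correlations cannot show whether same-numbered samples were handled together. With equal groups a block leaves each difference as it was, such as -0.18 for asm-2 over asm-1, and only p-values can change. The 13 to 120 reads of asm-3 and 15 to 37 of lagr-1 limit their precision.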

Other observations

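A search of the deposited gene descriptions, made after the lists were set, found 6 more sphingolipid genes, all tested and none past the threshold (limma; 1 at an unadjusted p under 0.05), against 0.17% and 11.8% of all tested genes. T27F6.6, described as a putative neutral sphingomyelinase, which cuts the same lipid as the acid enzymes, was at 5.36 ± 0.095 log2 CPM under DMSO and 5.30 ± 0.11 with zidovudine (SD, n = 4 each; difference -0.058, 95% interval -0.23 to 0.11, limma adjusted p = 0.782). Its difference ran from -0.11 without zidovudine 2 to -0.020 without DMSO 4. F53B1.2, described as related to sphingomyelin synthase, was at 4.52, 4.56, 4.63 and 4.51 log2 CPM under DMSO and at 4.69, 4.76, 4.68 and 4.77 with zidovudine. All 4 zidovudine libraries were above all DMSO libraries, and the difference was 0.17 (95% interval 0.0047 to 0.34, limma adjusted p = 0.413). F33D4.4, described as a putative sphingolipid desaturase, also had groups that did not overlap, with a difference of 0.11 (limma adjusted p = 0.503). Groups that lay apart in the higher direction made up 3.84% of all tested genes.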
